A study of Mus musculus with 2 samples.

Results

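Type 1 conventional dendritic cells (cDC1) were chosen by their own UMI counts, as the cell barcodes that carried at least 50 UMIs over the MHC class II genes H2-Aa, H2-Ab1 and Cd74, at least 2 UMIs over Xcr1 and Clec9a, and 0 UMIs over the B cell genes Cd79a and Ms4a1. The rule picked 111 of the 3035 cells of the series, 75 of 1149 in the PCB126 library and 36 of 1886 in the Control library. Every barcode counted as a cell had at least 500 UMIs, at least 250 genes and at most 20% mitochondrial UMIs. A UMI (unique molecular identifier) is a tag that stands for 1 captured mRNA molecule.

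The series measured single-cell transcriptomes of nonparenchymal liver cells, that is, liver cells other than hepatocytes, from 2 C57/BL6 mice labelled as postnatal day 21. One mouse received PCB 126, a dioxin-like polychlorinated biphenyl that activates the aryl hydrocarbon receptor (AHR), by gavage; the dose is given as 20 µg/kg per day although the gavage is described as given once. The other mouse received the vehicle, peanut oil, and carries the treatment label Untreated. Both exposures lasted 5 weeks and ended with a fast of 12 hours, and the dissociated livers were spun, passed through a 30 µm mesh and freed of erythrocytes to leave the nonparenchymal fraction. Each group is 1 mouse and 1 library, so treatment, mouse and library preparation cannot be told apart, and no test between the groups exists. Intervals are exact 95% intervals that cover counting error only.

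cDC1 are antigen-presenting cells that depend on the transcription factors IRF8 and BATF3. They take up dead cells through the receptor CLEC9A, meet XCL1-producing T and NK cells through the chemokine receptor XCR1, and are known for presenting antigen of other cells on MHC class I to CD8 T cells, which is called cross-presentation. In the liver they are a small population, and interferons raise the antigen presentation machinery of such cells.

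cDC1 made up 6.53% of cells in the PCB126 library (interval 5.17 to 8.11) and 1.91% in the Control library (1.34 to 2.63), a share ratio of 3.42 (2.27 to 5.24). Within the cells that passed the MHC class II and B cell gates the order was the other way round, with 75 of 186 cells (40.3%) in the PCB126 library and 36 of 61 (59.0%) in the Control library. The neighbouring gate for type 2 dendritic cells (cDC2), which asks for 0 UMIs of Xcr1 and Clec9a and at least 2 UMIs of Cd209a, Clec10a and Mgl2, held 34 cells in the PCB126 library and 6 in the Control library. The cDC1 were sequenced alike in both mice. Their median depth was 16258 UMIs and 3414 genes per cell in the PCB126 library and 16192 UMIs and 3229 genes in the Control library, and the summed cells held 1242533 UMIs in PCB126 and 586982 UMIs in Control. Mitochondrial UMIs had a median of 6.43% in PCB126 cDC1 and 4.64% in Control cDC1.

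The label was checked against Irf8, Wdfy4 and Naaa, the 3 of its 5 markers that the rule did not use. All 3 were detected in 62 of 75 PCB126 cells and in 35 of 36 Control cells, so part of the PCB126 cells went against the label. Xcr1 and Clec9a chose the cells and are described only. Xcr1 was at 0 in 18 PCB126 cells and 1 Control cell. The 18 PCB126 cells without Xcr1 summed to 656 CPM of Irf8 (UMIs of the gene scaled to 1000000 UMIs of the summed cells), against 2034 CPM in the 57 PCB126 cells with Xcr1. They also held 289 CPM of Cd209a, a C-type lectin of cDC2, and 562 CPM of C1qb, a complement subunit made by macrophages, whereas the cells with Xcr1 held 2.02 CPM of Cd209a and no C1qb. Of these 18 cells, 13 had under 5 Irf8 UMIs per 10000, 10 had at least 2 UMIs of the cDC2 gate genes and 5 had at least 5 UMIs of a C1q subunit. A narrower set was therefore kept beside the full one: the 54 PCB126 cells and 34 Control cells with both Xcr1 and Clec9a. Its share ratio was 2.61 (1.67 to 4.13), and Cd209a and C1qb were both at 0 UMIs in it in both libraries.

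At the edge of the rule, 19 PCB126 barcodes and no Control barcode had a single UMI of Xcr1 and Clec9a and were left out. They held 721 CPM of Irf8 and 41.0 CPM of Naaa. The members with exactly 2 such UMIs were 12 PCB126 cells with 493 CPM of Irf8 and 4 Control cells with 879 CPM. The lowest MHC class II sum of a member was 72 UMIs in the PCB126 library and 60 in the Control library, against medians of 559 in PCB126 and 494.5 in Control.

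Other cell types' RNA differed between the libraries. In Control cDC1, hemoglobin made up 1.09% of UMIs and 2 cells held at least 100 hemoglobin UMIs, against 0.00249% and no such cell in PCB126 cDC1. Low counts were spread more widely. Hbb-bs had a UMI in 34 of 36 Control and 17 of 75 PCB126 cells, the neutrophil marker S100a9 in 19 and 1, and the hepatocyte marker Alb in 23 and 22. Were all hemoglobin free RNA, as read in barcodes under 250 genes, free RNA would be 1.99% of Control and 0.0118% of PCB126 member UMIs. A single Control cell held 653 of the 696 neutrophil marker UMIs, and the list summed to 20.9 CPM in PCB126 cDC1 and 1186 CPM in Control cDC1. Macrophage markers summed to 266 CPM in PCB126 cDC1, 98.5% of it in 5 cells, and to 1.70 CPM in Control cDC1; 9 of the 10 markers were at 0 in the Control library. In the set with both Xcr1 and Clec9a these sums were 2.09 and 1.82 CPM. Of 10 T and NK cell markers almost none was detected, and 9 were at 0 in each library. The part of these cells in the results was not tested beyond the values given with and without them. 3 barcodes occurred in both libraries, none of them a cell past the filter.

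The genes that define the cells did not all stand at the same level in both mice. Irf8, the master transcription factor of cDC1, had 1754 CPM in PCB126 cDC1 and 1768 CPM in Control cDC1. Its per-cell median was 18.3 UMIs per 10000 in PCB126 cells, with a range of 0 to 39.9, and 17.8 in Control cells, with a range of 1.89 to 46.6. Batf3, its partner, had 197 CPM in PCB126 and 204 CPM in Control cDC1. These regulators stood at nearly the same level in both libraries. Xcr1 and Clec9a, which chose the cells, had 359 and 385 CPM in PCB126 cDC1 and 428 and 269 CPM in Control cDC1. Wdfy4, a BEACH-domain protein needed in mice for cross-presentation of cell-associated antigen, had 530 CPM in PCB126 and 746 CPM in Control cDC1, a ratio of 0.71 (0.628 to 0.803).

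Naaa stood apart among the markers. It encodes the lysosomal enzyme N-acylethanolamine acid amidase (chromosome 5, 92257659 to 92278170, minus strand, GRCm38). PCB126 cDC1 held 615 UMIs, or 495 CPM, and Control cDC1 held 840 UMIs, or 1431 CPM, which is 2.89-fold higher in Control (2.60 to 3.21). The per-cell median was 4.02 UMIs per 10000 in PCB126 cells, with a range of 0 to 16.8, and 14.3 in Control cells, with a range of 0 to 35.2. The upper quartile of PCB126 cells, 6.49, lay under the lower quartile of Control cells, 11.5, although the ranges overlapped. Cells with both Xcr1 and Clec9a gave 568 CPM in PCB126 and 1511 CPM in Control. After every cell was thinned to 3000 UMIs, Naaa was detected in 51 of 75 PCB126 cells and 34 of 36 Control cells, against 5 of 575 PCB126 and 7 of 279 Control cells of the sinusoidal endothelial gate, cells that should lack it.

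**Figure D1:**
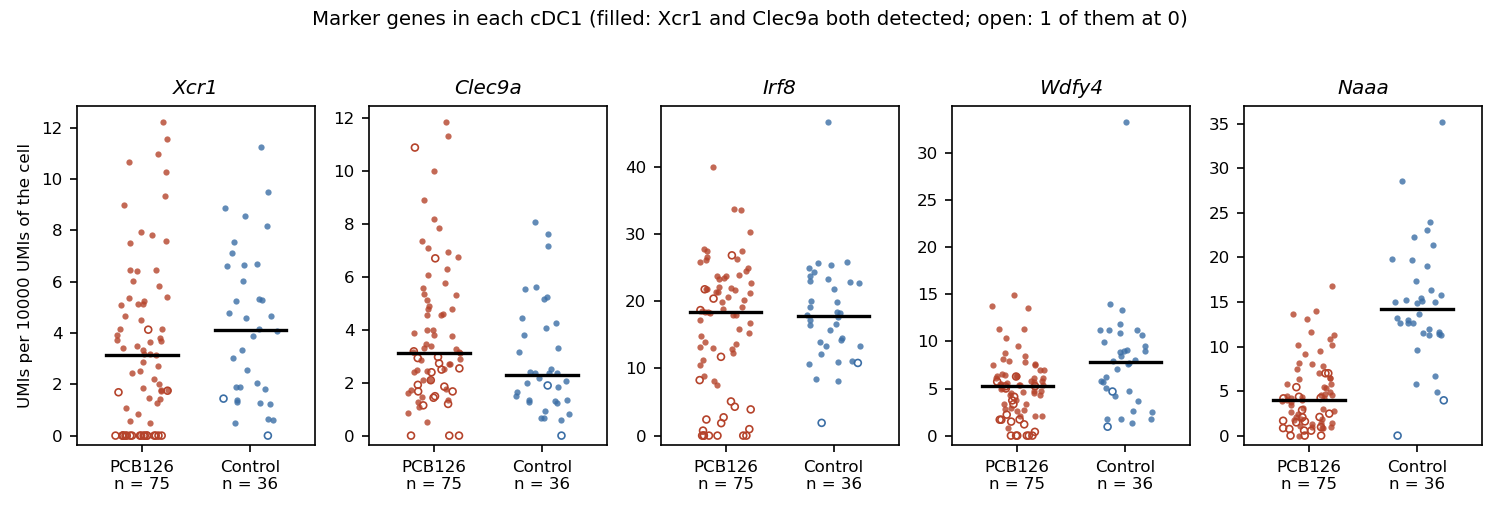
Levels of the 5 marker genes in each cDC1, in UMIs per 10000 UMIs of the cell, for 75 PCB126 cells (left) and 36 Control cells (right). Black bars are medians; open points are cells in which Xcr1 or Clec9a was at 0. Of the 18 PCB126 cells without Xcr1, 13 lie under 5 for Irf8, and the Naaa medians of 4.02 in PCB126 and 14.3 in Control stand apart.

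Across all genes, 6849 had at least 20 UMIs over the cDC1 of both libraries. Of these, 1329 (19.4%) were at least 1.5-fold higher in PCB126 cDC1 and 737 (10.8%) were at least 1.5-fold lower. The median log2 ratio over all of them was 0.08 (PCB126 over Control, 0.5 counts added to each sum). The set with both Xcr1 and Clec9a gave 1150 of 6150 genes higher (18.7%) and 727 lower (11.8%). These counts include the scatter of genes with few UMIs, and list counts are read against them.

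The list of cDC1 identity genes leaned low in PCB126 cells. Of 24 genes, 21 had enough UMIs, and 1 of these was past 1.5-fold higher and 11 past 1.5-fold lower, with a median log2 ratio of -0.63. In the set with both Xcr1 and Clec9a, 1 was past higher and 7 past lower, with a median of -0.49. Besides Naaa, the lower genes were Ppt1, a lysosomal thioesterase, with 828 CPM in PCB126 and 1492 CPM in Control cDC1. Rab7b, a small GTPase of endosomes, had 196 CPM in PCB126 and 317 CPM in Control, and Cd24a, a surface glycoprotein, had 214 CPM in PCB126 and 426 CPM in Control. Cd8a, a surface marker of lymphoid cDC1, was low in both, with 7 UMIs in 5 PCB126 cells and 22 UMIs in 11 Control cells. Tlr11, the mouse receptor for profilin of protozoa, had 74.0 CPM in PCB126 and 121 CPM in Control. The inhibitory receptor Btla had 135 CPM in PCB126 and 210 CPM in Control. Gcsam, Snx22, Sept3 and Clnk made up the rest of the lower genes, with the interval of Clnk including 1. The single higher gene was Cxx1b, with 149 CPM in PCB126 and 39.2 CPM in Control, a ratio of 3.80 (2.46 to 6.14). Genes that dendritic cells share, among them Flt3, the receptor that drives their growth, and Zbtb46, had a list median of 0.10 over 12 genes.

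Apol7c was detected in most PCB126 cDC1 and in 1 Control cDC1. It encodes a mouse member of the apolipoprotein L family that has been described on phagosomes of dendritic cells. The gene lies on chromosome 15, 77524852 to 77533316, on the minus strand of GRCm38. PCB126 cDC1 held 729 Apol7c UMIs in 42 of 75 cells, or 587 CPM, and Control cDC1 held 1 UMI in 1 of 36 cells, or 1.70 CPM. The ratio of 344 has an interval of 61.6 to 13621, wide because of the single Control UMI. In cells with both Xcr1 and Clec9a it was 686 UMIs in 40 of 54 PCB126 cells and 1 UMI in 34 Control cells. Thinned to 3000 UMIs, 32 of 75 PCB126 cells and 0 of 36 Control cells had a UMI, and a count of 0 allows up to 8.33% of Control cells to hold a UMI at that depth (3 counts of the total). In cells that should lack it, 1 of 575 PCB126 sinusoidal endothelial cells and 0 of 56 PCB126 B cells had a UMI at that depth; their median depths before thinning were 6100 and 5497 UMIs.

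Apol7c was uneven among the PCB126 cells. 2 cells with 185 and 151 UMIs held 46.1% of the total, and the other 40 cells with Apol7c had a median of 5.5 UMIs. Ccl17, a chemokine ligand of CCR4, had 22 UMIs in the cell with 185 Apol7c UMIs and 23 in the cell with 151. It had 1.45 CPM in the other 40 cells with Apol7c, but 106 CPM in the 33 PCB126 cells without Apol7c. Cxcl9, an interferon-gamma induced ligand of CXCR3, had 284 UMIs in the cell with 185 and 11 in the cell with 151, so the pair differed in it. Neither of these 2 cells had a UMI of Ly6a or Ccr2, whereas the other 40 cells with Apol7c held 315 and 468 CPM of these genes. The 33 cells without Apol7c held 780 CPM of Ly6a, 633 CPM of Ccr2 and 571 CPM of Cxcl9. With both cells left out, the log2 ratio of Apol7c was 7.02, against 7.84 with them. Outside cDC1, Apol7c was found in 13 of 14 PCB126 cells of a gate on Ccr7 and Fscn1, genes of migrating mature dendritic cells, with 737 UMIs, and in 4 of 34 PCB126 cDC2. The Ccr7 and Fscn1 gate held no Control cell.

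Promoter sequences from RefSeq, build GRCm38.p6, are shown for Apol7c and for 3 genes of the interferon-gamma list described next, because the list was higher in PCB126 cDC1. Each runs from 250 bases before to 50 bases after the transcription start, 5′ to 3′ on the gene's strand. Capitals mark the core of the interferon-stimulated response element (GAAA, any 2 bases, GAAA) and the interferon-gamma activated site (TTC, any 3 bases, GAA), both searched on both strands. The regions are chr15:77533266-77533565 (minus) for Apol7c, chr3:142620413-142620712 (plus) for Gbp2, chr3:142530086-142530385 (plus) for Gbp7 and chr11:53769764-53770063 (plus) for Irf1.
Apol7c: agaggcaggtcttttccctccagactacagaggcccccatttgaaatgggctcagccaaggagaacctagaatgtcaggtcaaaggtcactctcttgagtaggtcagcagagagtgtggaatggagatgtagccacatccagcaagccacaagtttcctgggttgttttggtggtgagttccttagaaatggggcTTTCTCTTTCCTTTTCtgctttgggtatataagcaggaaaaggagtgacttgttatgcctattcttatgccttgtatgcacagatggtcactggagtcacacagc
Gbp2: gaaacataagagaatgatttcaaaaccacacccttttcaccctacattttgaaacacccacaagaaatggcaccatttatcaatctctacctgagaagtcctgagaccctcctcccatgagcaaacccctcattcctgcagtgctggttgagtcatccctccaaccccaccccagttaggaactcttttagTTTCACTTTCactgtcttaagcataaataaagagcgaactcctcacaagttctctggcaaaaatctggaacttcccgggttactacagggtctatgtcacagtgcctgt
Gbp7: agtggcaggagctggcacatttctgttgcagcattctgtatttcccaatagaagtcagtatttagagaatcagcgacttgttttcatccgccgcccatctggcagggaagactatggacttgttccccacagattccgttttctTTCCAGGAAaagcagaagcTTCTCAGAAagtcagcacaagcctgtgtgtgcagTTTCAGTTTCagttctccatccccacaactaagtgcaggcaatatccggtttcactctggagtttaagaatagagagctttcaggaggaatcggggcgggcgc
Irf1: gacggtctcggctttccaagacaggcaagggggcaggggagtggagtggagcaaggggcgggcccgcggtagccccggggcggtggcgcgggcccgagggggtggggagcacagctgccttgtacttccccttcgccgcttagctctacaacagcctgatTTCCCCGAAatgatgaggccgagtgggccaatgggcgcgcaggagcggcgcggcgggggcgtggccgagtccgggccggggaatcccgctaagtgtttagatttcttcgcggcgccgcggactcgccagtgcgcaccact
The Apol7c promoter held 2 overlapping response element cores, 55 to 46 and 49 to 40 bases before the start. Gbp2 held 1 core 59 to 50 bases before the start. Gbp7 held 1 core 53 to 44 bases before the start and 2 activated sites. The Irf1 promoter shown held 1 activated site and was picked for it. Another Irf1 promoter, chr11:53770223-53770522 (plus), held neither motif. The promoter of Cxcl9, a gene of the same list that is not shown, held neither motif as well. For the counts, a gene held a motif if any of its promoters did. The response element core occurred in 1079 of 27025 genes with a promoter (3.99%) and in 9 of the 11 genes of the interferon-gamma list that matched a promoter. The activated site occurred in 9.55% of genes and in 7 of those 11. A match is a description of letters, not of binding. These shares follow from which genes are in the list and would be the same at any level of the genes in cDC1.

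The interferon-gamma list was made of immunity-related GTPases, guanylate-binding proteins, Cxcl9 and Irf1, and 12 of its 13 genes were measured. All 12 were past 1.5-fold higher in PCB126 cDC1, against 19.4% of all genes, with a median log2 ratio of 4.72. Of these 12, 6 were at 0 UMIs in Control cells and could only count as higher. The whole list held 1265 UMIs in PCB126 and 50 in Control cDC1. In all, 7 of the 13 genes were at 0 UMIs in the Control library. With such genes set to the fold over a floor of 3 Control counts, the median is 2.50. Iigp1, a GTPase that attacks the vacuoles of intracellular parasites, had 104 UMIs in 12 PCB126 cells and 0 in Control cells. That is 16.4-fold higher against the floor of 3 counts, and the interval of its ratio starts at 13.1. Ifi47, a GTPase of the same family outside the list, had 67 UMIs in 23 PCB126 cells and 0 in Control cells. That is 10.6-fold higher against the floor, with an interval from 8.35 upwards. Gbp2, a guanylate-binding protein, had 81 UMIs in PCB126 cDC1 and 1 in Control cDC1, a ratio of 38.3 (6.68 to 1530). Cxcl9 had 655 UMIs in 15 PCB126 cells and 15 UMIs in 5 Control cells, with 43.4% of the PCB126 UMIs in 1 cell. Irf1, the transcription factor of this response, had 102 UMIs in 43 PCB126 cells and 17 UMIs in 9 Control cells, a ratio of 2.83 (1.69 to 5.05).

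A few cells carried most of this signal. 5 PCB126 cells held 68.8% of the list's 1265 PCB126 UMIs, and the per-cell median was 1.83 UMIs per 10000 in PCB126 cells, with a range of 0 to 147, and 0.20 in Control cells, with a range of 0 to 4.84. Among the 5 were a cell of 16210 UMIs with 69.7 list UMIs per 10000 and a cell of 16042 UMIs with 56.7, both without Xcr1. The cell of 16210 UMIs is described below for its Cyp1a1 and its endothelial marker Ptprb. The part of such mixed RNA in the list was not tested. At least 5 UMIs of the list were found in 27 of 75 PCB126 cells and 3 of 36 Control cells. Without these 5 cells the list median was 2.69 and the log2 ratios were 5.28 for Iigp1, 3.81 for Gbp2 and 1.57 for Cxcl9. With both Xcr1 and Clec9a required, the list held 849 UMIs in PCB126 and 48 in Control cells. All 8 measured genes were past 1.5-fold higher, against 18.7% of all genes in that set. Of these 8, 3 were at 0 UMIs in Control cells and could only count as higher.

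The list of interferon-stimulated genes was higher more evenly. Of 14 measured genes, 12 were past 1.5-fold higher and 1 past lower, with a median log2 ratio of 1.23, and in the set with both Xcr1 and Clec9a 9 of 12 were past higher and 1 past lower, with a median of 0.98. Ifitm3, an antiviral membrane protein, had 464 CPM in PCB126 and 145 CPM in Control cDC1, a ratio of 3.21 (2.55 to 4.08). Bst2, a protein that tethers budding viruses, had 181 CPM in PCB126 and 88.6 CPM in Control. Isg15, a ubiquitin-like modifier, had 72 UMIs in PCB126 and 6 in Control cDC1, and Zbp1, a sensor of nucleic acids, had 64 in PCB126 and 8 in Control. Mx1, a GTPase with antiviral activity, was the lower gene, with 27.4 CPM in PCB126 and 42.6 CPM in Control and an interval that includes 1. Receptors of interferon were close to level: Ifngr1 had 503 CPM in PCB126 and 417 CPM in Control, and Ifnar1 had 104 CPM in both.

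Ly6a (Sca-1, chromosome 15, 74994877 to 74998031, minus strand), a surface protein that interferons induce, had 606 UMIs in 55 of 75 PCB126 cells and 15 UMIs in 6 of 36 Control cells. That is 488 CPM in PCB126 and 25.6 CPM in Control cDC1, a ratio of 19.1 (11.5 to 34.3). Per cell the median was 1.67 UMIs per 10000 in PCB126 cells, up to 41.5, and 0 in Control cells, up to 2.82, so the highest Control cell lay between the median and the upper quartile, 5.47, of the PCB126 cells. The set with both Xcr1 and Clec9a gave 324 UMIs in PCB126 and 14 in Control cells, a ratio of 13.3 (7.80 to 24.6). Endothelial and B cells also carry Ly6a: the sinusoidal endothelial gate had 484 CPM in PCB126 and 384 CPM in Control, and the B cell gate had 314 CPM in PCB126 and 567 CPM in Control.

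**Figure D2:**
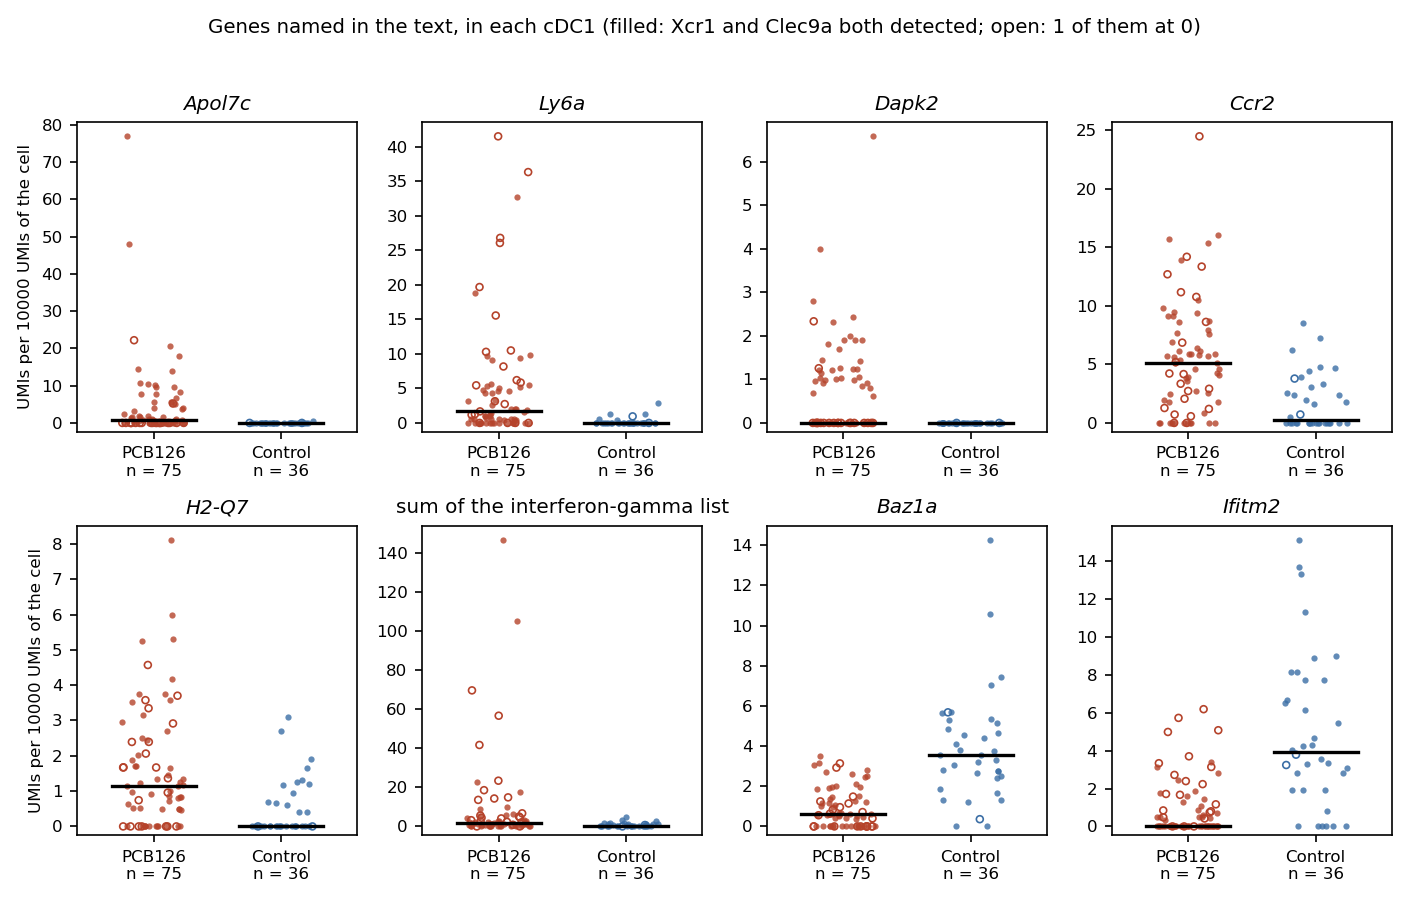
UMIs per 10000 UMIs of the cell in each of 75 PCB126 cDC1 (left) and 36 Control cDC1 (right) for 7 genes and for the sum of the interferon-gamma list. Black bars are medians and open points are cells with Xcr1 or Clec9a at 0. Apol7c and Dapk2 are near 0 in all Control cells, 2 PCB126 cells stand far above the rest for Apol7c, and Baz1a and Ifitm2 have the higher medians in Control cells.

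Genes of antigen presentation on MHC class I leaned high in PCB126 cDC1. All 23 genes of the cross-presentation list were measured, with 11 past 1.5-fold higher and 0 past lower, and a median log2 ratio of 0.52. In the set with both Xcr1 and Clec9a, 8 were past higher and 1 past lower, with a median of 0.38. The heavy chain H2-K1 had 1119 CPM in PCB126 and 555 CPM in Control cDC1, a ratio of 2.02 (1.79 to 2.28), and was detected in 74 of 75 PCB126 cells and 36 of 36 Control cells. Its per-cell median was 9.82 UMIs per 10000 in PCB126 cells and 5.06 in Control cells. H2-D1, the other classical heavy chain, had 1500 CPM in PCB126 and 973 CPM in Control, and the shared light chain B2m had 1911 CPM in PCB126 and 1331 CPM in Control, a ratio of 1.44 that is under the threshold. Among the nonclassical heavy chains, H2-Q7 had 175 CPM in PCB126 and 52.8 CPM in Control, a ratio of 3.32 (2.27 to 5.01). H2-T23, which encodes Qa-1, had a ratio of 2.15 (1.78 to 2.61), and H2-M3, which presents formylated peptides, 2.08 (1.34 to 3.35).

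Genes of peptide supply were mixed. Tap2 and Tap1, the subunits of the transporter that loads peptides into the endoplasmic reticulum, had ratios of 2.04 (1.52 to 2.78) and 1.62 (1.31 to 2.01). Tapbpl, an editor of loaded peptides, had a log2 ratio of 0.57, and the interval of its ratio, 0.92 to 2.55, includes 1. Of the immunoproteasome subunits, Psmb10 had 188 CPM in PCB126 and 118 CPM in Control, whereas Psmb8 had 913 CPM in both libraries and Psmb9 had 635 CPM in PCB126 and 499 CPM in Control. Rab43, a GTPase that mouse cDC1 use in cross-presentation, had a ratio of 1.89 (1.17 to 3.17). Cybb, the catalytic subunit of the phagocyte NADPH oxidase, had 92 UMIs in 17 PCB126 cells and 25 UMIs in 3 Control cells; its log2 ratio was 0.78 in all members and -4.15 in those with both Xcr1 and Clec9a. MHC class II genes outside the rule differed less: 2 of 10 measured were past higher, 0 past lower, and the median was 0.30, with H2-Eb1, a class II beta chain, at a log2 ratio of 0.07.

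**Figure D3:**
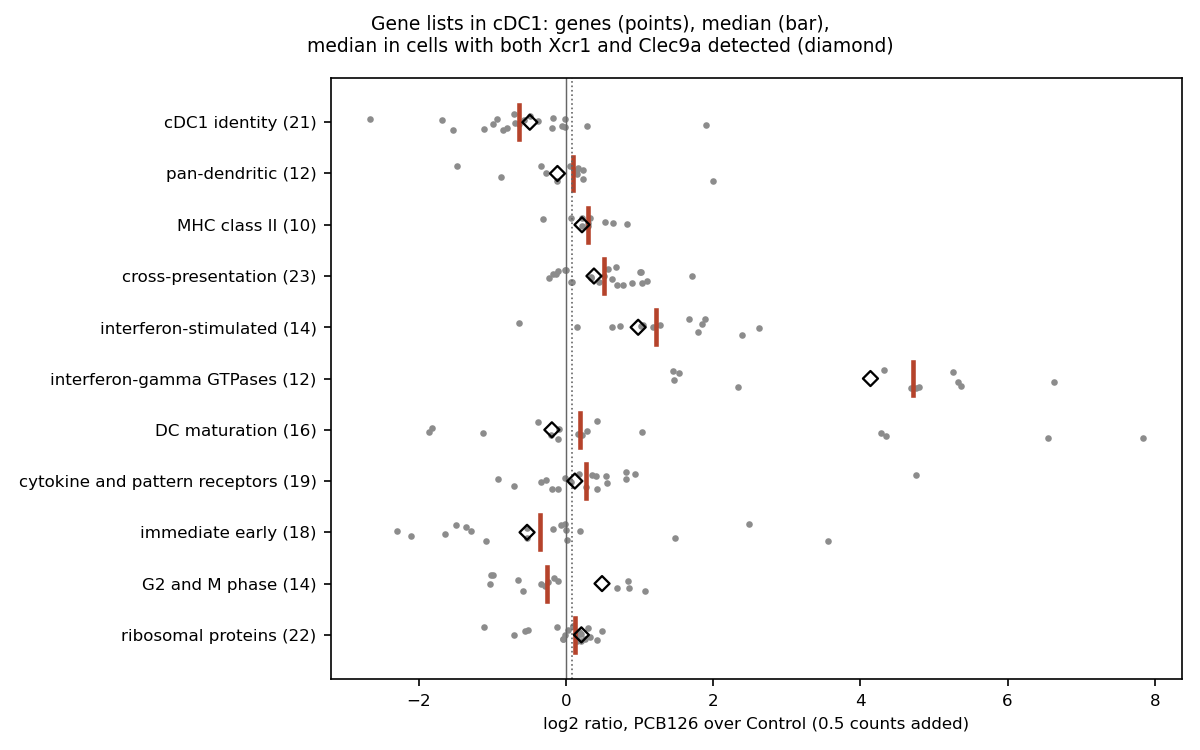
Log2 ratio, PCB126 over Control, of each measured gene (points) in 11 gene lists, with the number measured in brackets, the list median (bar) and the median in the set with both Xcr1 and Clec9a detected (diamond). The dotted line is the median of all genes, 0.08. The interferon lists lie highest, at medians of 4.72 and 1.23, and the cDC1 identity list lowest, at -0.63.

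Other genes absent or nearly absent from Control cDC1 did not belong to the interferon lists. Dapk2 (chromosome 9, 66158223 to 66272242, plus strand), a calmodulin-regulated kinase, had 102 UMIs in 34 of 75 PCB126 cells and 0 UMIs in 36 Control cells. That is 16.1-fold higher against the floor of 3 counts, with an interval from 12.8 upwards. No cell held more than 8 of its UMIs, and after thinning to 3000 UMIs it was detected in 9 of 75 PCB126 cells and 0 of 36 Control cells, against 1 of 56 PCB126 B cells. The sinusoidal endothelial gate also carried Dapk2, with 45.4 CPM in PCB126 and 47.4 CPM in Control. Ctla2b, which resembles the propeptide of cysteine proteases, had 111 UMIs in 39 PCB126 cells and 4 UMIs in 3 Control cells, a ratio of 13.1 (4.98 to 48.96). Serpinb6b, a protease inhibitor, had 258 UMIs in 33 PCB126 cells and 15 UMIs in 5 Control cells, a ratio of 8.13 (4.84 to 14.7). Hic1, a transcriptional repressor, had 60 UMIs in PCB126 and 2 in Control cDC1, and Sulf2, an enzyme that trims sulfate from heparan sulfate, had 52 UMIs in PCB126 and 1 in Control. Among cells with both Xcr1 and Clec9a the ratios were 15.6 for Ctla2b, 9.80 for Serpinb6b, 14.9 for Hic1 and 17.8 for Sulf2, and Dapk2 had 95 UMIs in PCB126 and 0 in Control cells.

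The monocyte marker list was mixed, with 3 of 6 measured genes past 1.5-fold higher and 2 past lower. Its median log2 ratio was 0.74, 0.19 in the set with both Xcr1 and Clec9a, and -0.34 at a gene minimum of 5 UMIs. Lyz2, lysozyme of phagocytes, had 1284 CPM in PCB126 and 300 CPM in Control cDC1, a ratio of 4.28 (3.66 to 5.03), and 2.65 (2.24 to 3.14) in the set with both Xcr1 and Clec9a. Its highest PCB126 cell held 296 of the 1596 UMIs. Ccr2, the chemokine receptor by which monocytes leave the bone marrow, had 513 CPM in 62 of 75 PCB126 cells and 204 CPM in 18 of 36 Control cells, a ratio of 2.51 (2.06 to 3.08), and 2.42 (1.97 to 2.99) in the narrower set. Thinned to 3000 UMIs, Ccr2 was detected in 50 of 75 PCB126 and 11 of 36 Control cells, and in none of the 56 PCB126 and 63 Control B cells. Ly6c2, a surface protein of classical monocytes, had 69 UMIs in PCB126 and 6 in Control cDC1. Ear2, an eosinophil-type ribonuclease, had 5 UMIs in PCB126 and 24 in Control, and Treml4, a receptor of myeloid cells, had 37 in PCB126 and 31 in Control, both past lower. The list summed to 1927 CPM in PCB126 cDC1 and 659 CPM in Control cDC1, most of it Lyz2 and Ccr2.

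On the lower side, Ifitm2, a relative of Ifitm3 that restricts virus entry, had 86.9 CPM in 37 of 75 PCB126 cells and 499 CPM in 30 of 36 Control cells, which is 5.74-fold higher in Control (4.59 to 7.23). Its sign was thus opposite to that of Ifitm3. Baz1a, a subunit of a chromatin remodelling complex, had 95.8 CPM in PCB126 and 354 CPM in Control cDC1, 3.70-fold higher in Control (2.94 to 4.67). The per-cell median of Baz1a was 0.62 UMIs per 10000 in PCB126 cells, up to 3.52, and 3.55 in Control cells, up to 14.3, so the Control median lay just above the highest PCB126 cell. Olfm1, a secreted olfactomedin, was 2.65-fold higher in Control (2.08 to 3.39), and Jun, a subunit of the AP-1 factor, was 3.14-fold higher in Control (2.39 to 4.14), but its log2 ratio was -1.65 with all members and 0.12 without the cells holding other cell markers. Sept3, a septin, was 3.23-fold higher in Control, and Gramd2 3.62-fold. The immunoglobulin light chain Igkc, a plasma cell transcript, had 9 UMIs in 9 PCB126 cells and 46 UMIs in 23 Control cells, with at most 8 in a cell. Whether these UMIs came from free RNA was not tested. The unnamed transcript AC121965.1 had 339 CPM in PCB126 and 806 CPM in Control.

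Rps29, a protein of the small ribosomal subunit, had 6263 CPM in PCB126 and 13505 CPM in Control cDC1, 2.16-fold higher in Control (2.09 to 2.22), whereas the 22 ribosomal genes listed had a median log2 ratio of 0.12. The difference was shared by other cells: the log2 ratio of Rps29 was -1.12 in the cDC2 gate, -0.82 in the B cell gate and -0.48 in the sinusoidal endothelial gate.

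**Figure D4:**
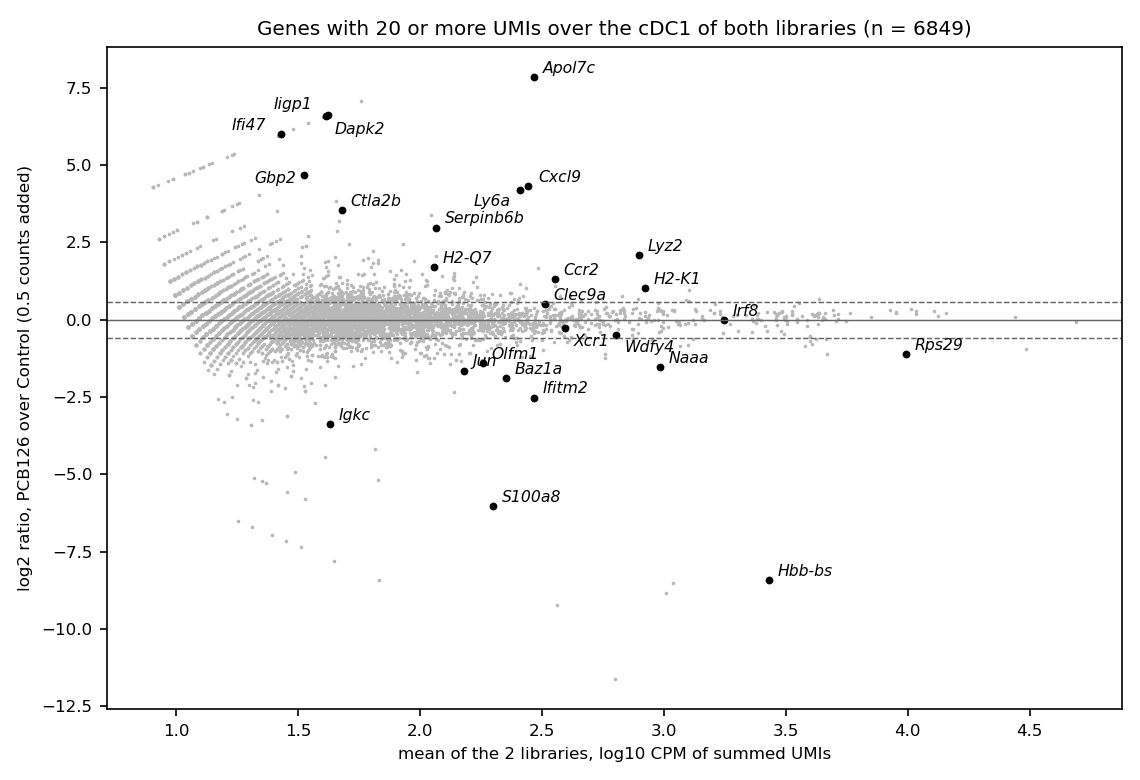
Log2 ratio, PCB126 over Control, against the mean of both libraries (log10 CPM of summed UMIs) for the 6849 genes with at least 20 UMIs over the cDC1 of both libraries. Dashed lines mark 1.5-fold; Apol7c, Cxcl9 and Ly6a lie far above the upper line, while Rps29, Naaa, Baz1a and Ifitm2 lie below the lower line, and Hbb-bs and S100a8 mark red cell and neutrophil RNA in Control cells.

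PCB126 binds AHR, and the genes that AHR is known to induce were hard to measure in cDC1. Only 3 of the 14 genes of the AHR list had 20 UMIs. Cyp1a1, the classical target, had 68 UMIs in 7 of 75 PCB126 cells and 0 UMIs in 36 Control cells, with 64.7% of them in 1 cell. That cell, of 16210 UMIs, had no Xcr1 UMI and an Irf8 level of 1.85 UMIs per 10000. It also held 43 of the 89 PCB126 UMIs of Ptprb, a sinusoidal endothelial marker. Whether its Cyp1a1 came from endothelial RNA was not tested. In the set with both Xcr1 and Clec9a there were 12 Cyp1a1 UMIs in 4 of 54 PCB126 cells. Sinusoidal endothelial cells of the same mice held 4890 CPM of Cyp1a1 in PCB126 and 180 CPM in Control, with a UMI in 637 of 647 PCB126 cells and 78 of 317 Control cells. Tiparp, an ADP-ribosyltransferase that AHR induces, had 32.2 CPM in PCB126 and 30.7 CPM in Control cDC1, a log2 ratio of 0.05, whereas the sinusoidal endothelial gate had 62.1 CPM in PCB126 and 24.1 CPM in Control. Ahrr, the repressor of AHR, had 18 UMIs in PCB126 and 1 in Control cDC1, too few for the threshold of 20. Ahr itself had 84 UMIs in PCB126 and 63 in Control cDC1, a log2 ratio of -0.67. Of 6 measured genes in a list of the AHR complex, 1 was past 1.5-fold lower in all members, against 10.8% of all genes. In the set with both Xcr1 and Clec9a it was 0 of 6, against 11.8%.

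Maturation markers were mixed. Ccr7 and Fscn1, which lead dendritic cells to lymph nodes, had 0 and 1 UMI in PCB126 cDC1 and 0 each in Control cDC1, so no member held 2 UMIs of them. By 3 counts of the total, this allows up to 4% of PCB126 cells and 8.33% of Control cells with 2 such UMIs, which does not limit the share of cells that express the genes. Ccl17 had 99 UMIs in 9 PCB126 cells and 0 in Control cells, 15.6-fold higher against the floor of 3 counts. The interval of its ratio starts at 12.4. Ccl22, with the same receptor, had 20 UMIs in 4 PCB126 cells and 0 in Control cells, and Pdcd1lg2, the inhibitory ligand PD-L2, had 21 UMIs in 7 PCB126 cells and 0 in Control cells. Among PCB126 cells with both Xcr1 and Clec9a, Ccl22 had 1 UMI and Ccl17 had 47. The costimulator Cd86 had 104 CPM in PCB126 and 111 CPM in Control. Cd40, another costimulator, had 32 UMIs in PCB126 and 7 in Control, a ratio of 2.16 whose interval, 0.936 to 5.80, includes 1, and its log2 ratio was -0.60 without the 5 cells richest in the interferon-gamma list. Over the 16 measured genes of the list, 5 were past higher and 3 past lower, against 19.4% and 10.8% of all genes. Of the 5, Ccl17, Ccl22 and Pdcd1lg2 were at 0 UMIs in Control cells and could only count as higher. The list median was 0.19, and -0.19 in the narrower set.

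Shares of dividing cells had wide, overlapping intervals. At least 2 UMIs of Mki67 and Top2a, genes of dividing cells, were found in 16 of 75 PCB126 cells (21.3%, 12.7 to 32.3) and 9 of 36 Control cells (25.0%, 12.1 to 42.2). After thinning to 3000 UMIs the shares were 10.7% in PCB126 and 11.1% in Control. The list of G2 and M phase genes had a median log2 ratio of -0.27 in all members and 0.49 in the set with both Xcr1 and Clec9a, and the S phase list had -0.24 in all members and 0.79 in that set.

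Several of the gaps had the same sign in the cDC2 gate; the 6 Control cells there limit this comparison, which was not tested. Gbp2 had 64 UMIs in PCB126 cDC2 and 0 in Control cDC2, and Cxcl9 had 188 in PCB126 and 0 in Control. H2-Q7 had 73 UMIs in PCB126 cDC2 and 1 in Control cDC2. Ly6a had 990 CPM in PCB126 and 103 CPM in Control cDC2, a ratio of 9.62 (4.63 to 24.0). Ifitm2 had 467 CPM in PCB126 and 2235 CPM in Control cDC2. Ccr2 had 369 CPM in PCB126 and 647 CPM in Control cDC2, the other direction from cDC1. Dapk2 was at 0 in the cDC2 gate of both libraries.

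**Figure D5:**
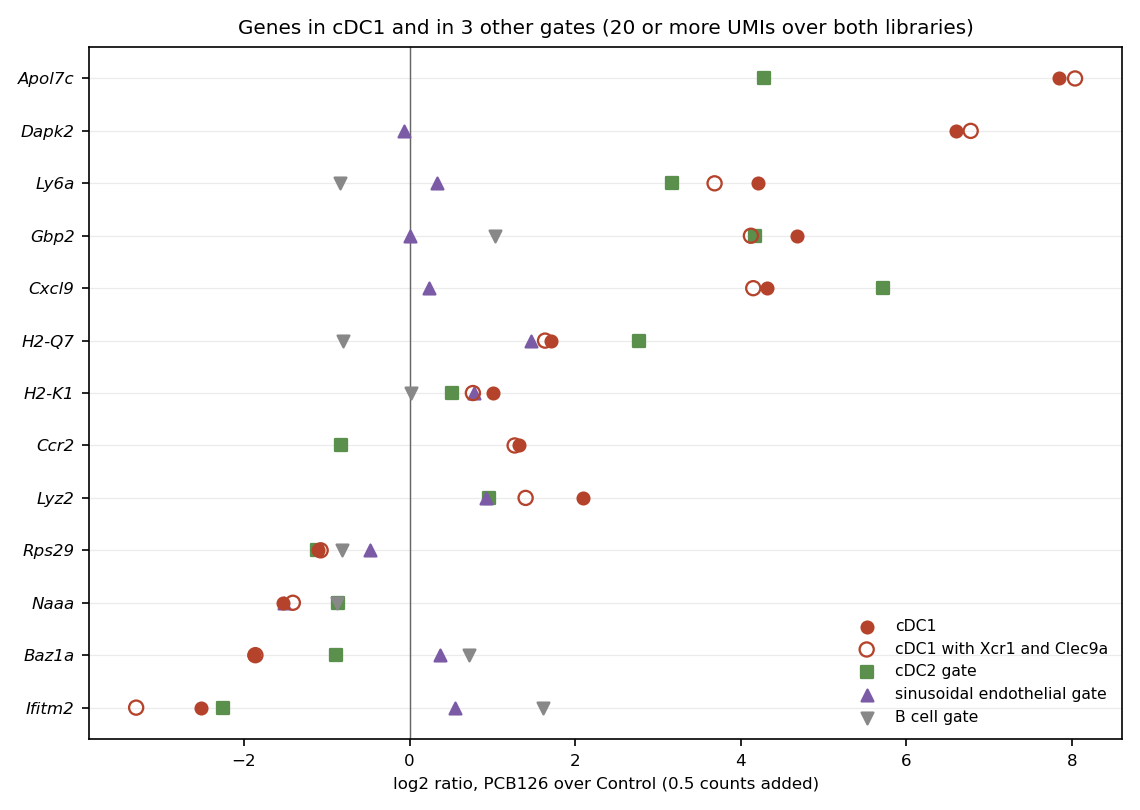
Log2 ratio, PCB126 over Control, of 13 genes in cDC1, in cDC1 with both Xcr1 and Clec9a, and in the cDC2, sinusoidal endothelial and B cell gates, shown where a gate had at least 20 UMIs over both libraries. Ly6a, Gbp2, Cxcl9, H2-Q7 and Ifitm2 lie on the same side of 0 in cDC1 and cDC2, Ccr2 on opposite sides, and Rps29 lies below 0 in every gate.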

How the data were processed

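Nonparenchymal liver cells of 1 PCB126 mouse and 1 Control mouse were profiled with 10x 3′ v3.1 chemistry at a target of 6000 cells. What the authors deposited are whole-number UMI counts, not normalized, for each gene in each barcode. They were written by Cell Ranger 6.0.0 per the file headers, whereas version 6.1.1 of Cell Ranger stands in the submitters' processing notes beside Seurat 4.0.1. The authors' build was not given in the sources used here. Gene positions come from GENCODE M21 (GRCm38), which holds 34049 of the 34244 features, and promoters from RefSeq GRCm38.p6.

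The libraries held 4307 barcodes and 16269562 UMIs in PCB126 and 8550 barcodes and 24134912 UMIs in Control. Counts were summed over the member cells of each library. Ratios have exact conditional binomial intervals and shares exact Clopper-Pearson intervals, both at 95%, which cover counting error only. With 1 library per group no p-value was computed. A gene at 0 in one library was set against a floor of 3 counts over the group. Genes entered counts and lists at 20 UMIs over both libraries. Thinning drew 1000 or 3000 UMIs per cell. Barcodes with the highest Scrublet scores, 11 in PCB126 and 28 in Control, 3 and 1 of them members, were left out only as an alternative. The gates for B and sinusoidal endothelial cells served as background.

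The members and the gene lists were chosen with earlier results of these data known. Named genes were the 5 markers and the 10 genes in each direction with the interval bound farthest from 1 (at least 50 UMIs, a UMI in at least 10% of cells, no cell with over 25% of the UMIs, without mitochondrial, hemoglobin and rule genes). Members past 1.5-fold were named from the cDC1 identity, AHR, cross-presentation and maturation lists, and members of highest count from every list. Batf3, Psmb8, Psmb9, Ifnar1, Isg15, Zbp1, Mx1, Zbtb46, Cd86, Tiparp, Ahr and Ahrr were named after their values were seen. Ly6c2, Ear2, Treml4, Il1b, Cxcl2, Tnf, Il23a, Egr1, Egr3, Fos, Fosb, Nr4a1, Dusp1, Klf2 and Axl were also named outside these rules. None of these added genes was among the 114 named genes followed over the alternatives. One gene that the rule names is not reported here. Counts of near-identical genes (MHC class I heavy chains, Gbp, Tgtp1 and Tgtp2, Ctla2, Serpinb6, Ifitm2 and Ifitm3, Rps29) are uncertain. The interval and fold steps were tested on simulated data. Python 3.11.15, numpy 2.4.6, scipy 1.17.1, pandas 2.3.3, scanpy 1.11.5 and matplotlib 3.10.9 were used.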

Additional observations from a re-analysis of the deposited data

Results flagged for a closer look

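Outside the mitochondrial limit of 20%, 5 further PCB126 barcodes and 0 Control barcodes met the cDC1 gates with over 20% and up to 50% mitochondrial UMIs. These PCB126 barcodes held 2209 CPM of Irf8, 449 CPM of Naaa and 104 CPM of C1qb. They entered no comparison of the report.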

How the results depend on the processing

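No paired analysis was possible because each group is 1 library. The share ratio of 3.42 became 2.01 without the 53 PCB126 and 18 Control cells holding other cell markers, which left 22 PCB126 and 18 Control cells. Of the cells left out, 52 and 16 were called by plasmacytoid markers, among them Bst2, Tcf4 and Ccr9. Bst2 and Tcf4 were themselves higher in PCB126 cDC1, with ratios of 2.04 and 1.91. This setting thus also chose cells by genes that differed between the libraries, and it does not show that the cells were of another type. Genes higher in PCB126 numbered 714 in that setting, 130 after thinning to 1000 UMIs, 2600 at a gene minimum of 5 UMIs, 261 at 100 UMIs and 586 at 2-fold. Genes lower numbered 94 after thinning, 1477 at 5 UMIs, 151 at 100 UMIs and 256 at 2-fold. Except at 2-fold, the number of genes with enough UMIs changed with the setting too. These counts are therefore not shares and cannot be set directly against 1329 and 737. The dividing share in PCB126 was 10.7% thinned to 3000 UMIs and 33.3% at 1 UMI, and in Control 11.1% thinned and 11.1% at 4 UMIs. The median of the cytokine list, -1.08, became 0.29 at 1 Xcr1 and Clec9a UMI, 0.31 without high doublet scores and 2.39 without other-marker cells; the monocyte list became -0.34 at a gene minimum of 5. Among named genes at least 1.5-fold apart with all members, some log2 ratios changed sign. Without other-marker cells these were Jun 0.12, Clnk 0.090, Marcksl1 1.01, Nfkbia 0.71 and Apoe -1.37. After thinning they were Tap1 -0.012, Psmb10 -0.14, Nfkbia 0.42 and Bcl2a1d -0.14. With both Xcr1 and Clec9a they were Cybb -4.15 and Ptprb -0.24, and at 4 UMIs Ptprb -0.29. Without the 5 cells richest in the interferon-gamma list Cd40 was -0.60. Without high doublet scores Nfkbia was 0.39 and Apoe -0.39, without dividing cells Nfkbia 0.14 and Mki67 -0.022, and with free RNA subtracted Hbb-bs 1.93. The cause was not tested. Of 114 named genes, 66 moved by over 1.5 times in at least 1 alternative. Among those at least 1.5-fold apart with all members, 13 changed sign. Genes nearer to level were not counted for sign, and some crossed 0 over the alternatives. Irf8 ranged from -0.32 to 0.17 and Flt3 from -0.42 to 0.58. List medians were treated alike, and that of the immediate early genes ranged from -0.72 to 0.28. The requirement of both Xcr1 and Clec9a and the removal of 2 Apol7c-rich or 5 interferon-rich cells were chosen after seeing the data.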

Other observations

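The cytokine and chemokine list had no stable direction in cDC1. Of 11 measured genes, 3 were past 1.5-fold higher and 7 past lower in PCB126, with a median log2 ratio of -1.08 that became 0.29, 0.31 and 2.39 in 3 alternatives (1 UMI of Xcr1 and Clec9a, high doublet scores left out, other-marker cells left out). Il1b, the secreted interleukin 1 beta, had 8 UMIs in PCB126 and 73 in Control cDC1, Cxcl2, a chemokine for neutrophils, had 4 UMIs in PCB126 and 77 in Control, and Tnf had 7 UMIs in PCB126 and 30 in Control. Of the list's Control UMIs, 69.5% lay in 5 cells, and 1 Control cell also held most neutrophil marker UMIs; the part of these cells was not tested. Il23a, a subunit of interleukin 23, had 0 UMIs in PCB126 and 21 in Control cDC1.

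Immediate early genes split. Egr1, a zinc finger factor, had 53 UMIs in PCB126 and 4 in Control cDC1, and Egr3 had 37 in PCB126 and 1 in Control, while Fos, Fosb, Jun, Nr4a1, Dusp1, Klf2 and Klf4 were past 1.5-fold lower; Jun changed sign without other-marker cells. Axl, a receptor for dying cells, had 28 UMIs in PCB126 and 0 in Control. The nuclear genes of oxidative phosphorylation had a list median of -0.07 and the heat shock list 0.01, both near the all-gene median of 0.08.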
